A study of Mus musculus with 26 samples.

Results

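The mouse chemokines and chemokine receptors were followed in liver RNA-seq. Every gene of the count table was taken whose symbol is Ccl, Cxcl, Cx3cl, Xcl, Ccr, Cxcr, Xcr or Ackr followed by digits and at most 1 letter. Ccl24, Ccr2, Cxcr2 and Cx3cr1 were kept apart and are given with the related genes. The rule found 56 of 55401 genes, 37 of them ligands and 19 receptors, and used no measured value. Of these, 37 had enough reads to be tested (23 ligands and 14 receptors).

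Chemokines are small secreted proteins that bind receptors with a membrane-spanning helical bundle and guide leukocytes along a concentration gradient. Most ligands bind several receptors, most receptors bind several ligands, and the atypical receptors take up chemokines without the usual G protein signal. In liver they are made by hepatocytes, Kupffer cells, endothelium, stellate cells and bile duct cells, and in fatty liver disease they are known for drawing in blood monocytes, neutrophils and T cells.

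The livers came from male C57BL/6 mice whose high-fat diet began at 4 weeks of age and lasted 18 weeks; the series design adds high cholesterol. The reference group was untreated (untreated HFD, 9 libraries), and the treated mice, fed the same way, received UCMSC-Exos, exosomes derived from UCMSCs, by tail vein every 72 hours for 8 weeks (8 libraries; the labels plan 9). Exosomes are membrane vesicles that cells release. A further 9 samples of mice given LSCR, a nanotherapeutic, were not analysed here. The labels list no injection for untreated HFD. The effect of the exosomes cannot be told apart from that of the injections, nor from any cage or cohort that a group shared. No mouse on a normal diet is part of the comparison.

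Libraries held 32.9 to 36.1 M counted reads. The tissue label was checked against hepatocyte genes: Alb, which encodes serum albumin, stood at 31180 reads per M library reads (CPM) in untreated HFD. UCMSC-Exos 9 stood apart from its group. On the first principal component of all tested genes (40.8% of the variance) it lay at -49.6, inside the untreated range of -51.7 to -2.2, while the other 7 treated libraries lay at 30.6 to 63.2. Untreated HFD 3 held pancreas transcripts (summed marker level 10100 CPM against a median of 15.3 CPM) and untreated HFD 9 skeletal muscle transcripts (7720 against 1.02 CPM). Where leaving out UCMSC-Exos 9, or untreated HFD 3 and 9 together, changed a member's call, both values are given, and the related and marker lists are counted with and without UCMSC-Exos 9.

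In the UCMSC-Exos livers, all 3 tested ligands of the monocyte receptor CCR2 (Ccl2, Ccl7 and Ccl12) were lower, and so were Ccl3, Ccl4, Ccl9, Cxcl5, Cxcl10, Cxcl16 and Xcl1 and receptor genes such as Ccr1, Cxcr4 and Xcr1. Ccl12 had the largest fall, whereas the calls of Ccl2, Ccl7 and Ccr1 were near the threshold. The B cell chemokine Cxcl13 and the scavenging receptor Ackr2 were higher. By edgeR's quasi-likelihood test, adjusted over all 16238 genes, 14 of the 37 tested members fell (37.8%), beside 10.4% of all tested genes, and 2 rose (5.41%), beside 9.73% of all tested genes. The remaining 21 did not pass. The median log2 fold change was -0.70 over the tested members and -0.02 over all tested genes. Without UCMSC-Exos 9, 18 members fell, beside 20.6% of all tested genes, and 2 rose, beside 15%; all 14 that fell with it were among the 18. In either direction, 20.2% of all tested genes passed with that library and 35.7% without it. In whole liver, fewer cells of a type and less RNA per cell cannot be told apart.

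A fit with 3 surrogate variables, which absorb unlabelled variation among libraries, left 4 members lower, beside 3.39% of all tested genes, and 2 higher, beside 2.81%, and 4 of the 16 called members kept their call. Among these were Ccl12 (-2.97, edgeR adjusted p = 0.00342), Ccl9 (-0.49, 0.0389) and Cxcl16 (-0.51, 7.58e-04). The members called higher in it were Ackr4 and Cxcr6, whereas Cxcl13 had 0.27 (edgeR adjusted p = 0.689). The other members that lost their call were Ccl2, Ccl3, Ccl4, Ccl7, Cxcl5, Cxcl10, Xcl1, Xcr1, Ccr1, Cxcr4 and Ackr2, with edgeR adjusted p from 0.0754 (Ccl3) to 0.405 (Ccr1). In this fit, 6.2% of all tested genes passed in either direction.

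**Figure D1:**
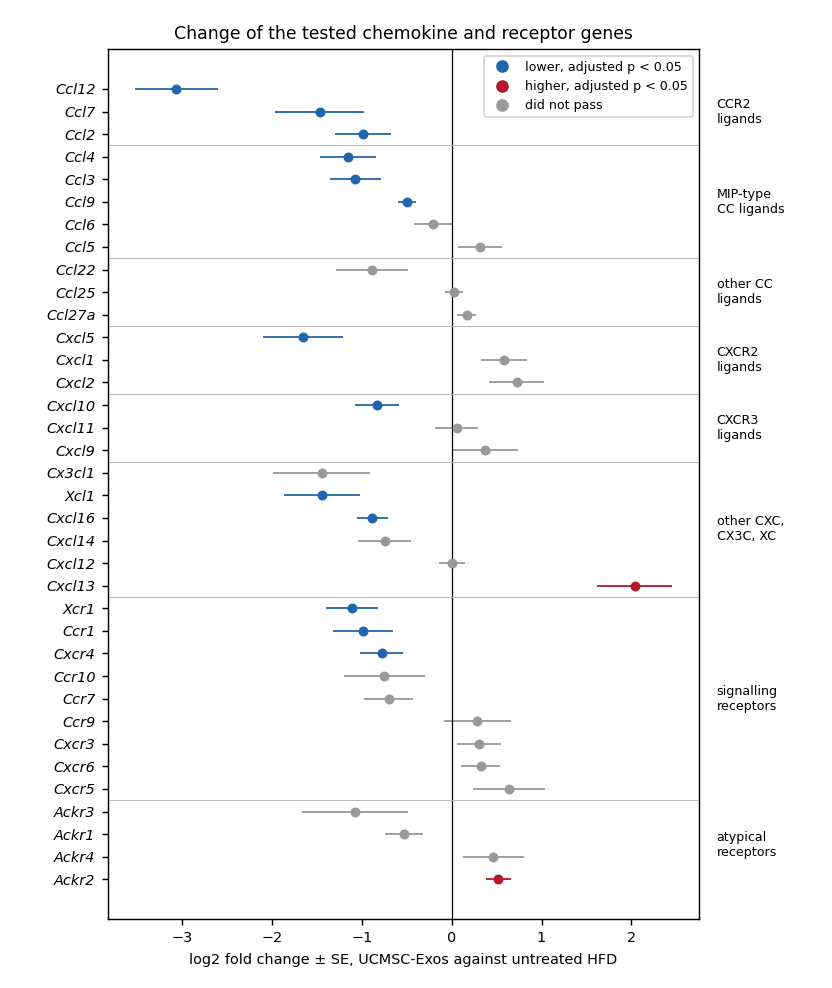
Log2 fold change ± SE of 36 tested members, UCMSC-Exos (n = 8) against untreated HFD (n = 9), grouped by role and coloured by the edgeR call at an adjusted p of 0.05. Ccl12 is farthest to the left at -3.06 and Cxcl13 farthest to the right at 2.04; all 3 CCR2 ligands are blue.

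Levels of different genes were compared as CPM per kb of exon. Cxcl12, the homeostatic ligand of CXCR4 made by stromal cells, had the highest level, 39.1 ± 9.59 (SD, n = 9) in untreated HFD and 39.2 ± 7.54 (SD, n = 8) in UCMSC-Exos. Ccl6 and Ccl9, rodent macrophage chemokines that act through CCR1, followed at 25.9 ± 10.7 and 19.7 ± 2.27 CPM per kb in untreated HFD. Next came the T cell chemokine Cxcl9 at 13.6 ± 4.08, Cxcl16 at 11.2 ± 2.37 and Cxcl10 at 10.4 ± 2.98 CPM per kb. In untreated HFD each of these 6 overlapped its neighbour in the order within 1 SD. Receptor genes had lower levels than these 6, for example Cxcr4 with 4.46 ± 1.21 and Xcr1 with 0.770 ± 0.350 CPM per kb in untreated HFD. The genes of highest level were thus not those of the largest fold change: Ccl12, with the largest fall, had 2.62 ± 1.4 CPM per kb in untreated HFD.

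**Figure D2:**
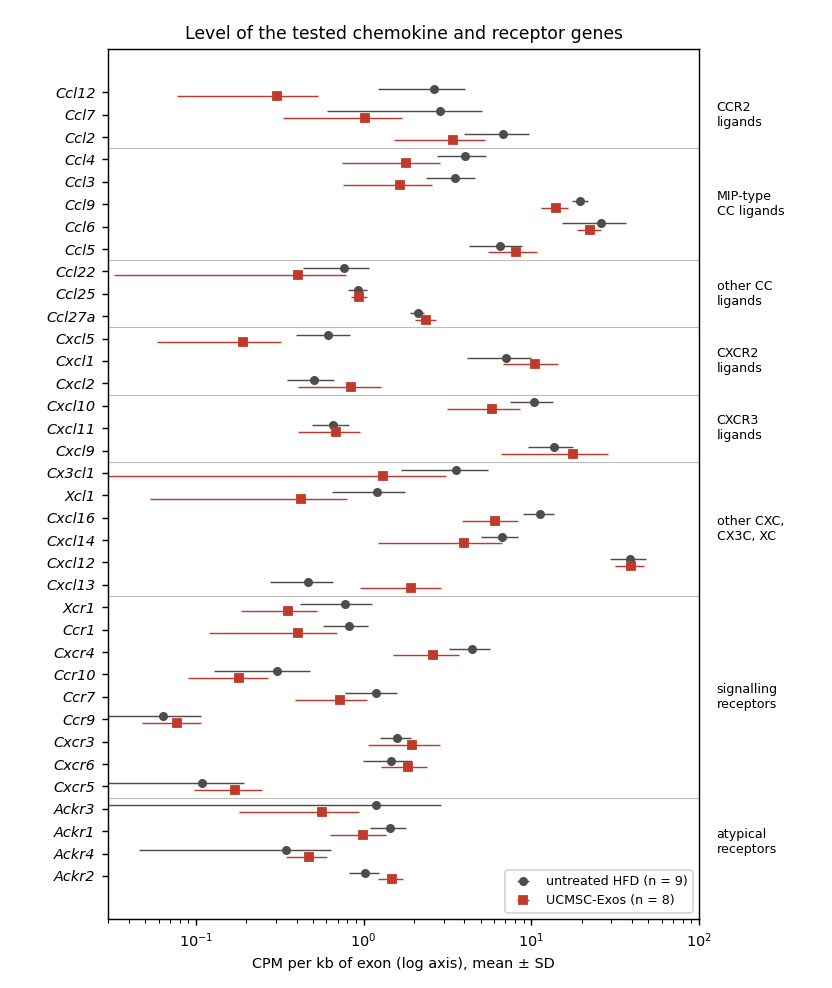
Mean level ± SD of 36 tested members in CPM per kb of exon on a log axis, for untreated HFD (circles, n = 9) and UCMSC-Exos (squares, n = 8). Cxcl12 has the highest level in both groups with nearly equal means, 39.1 and 39.2; lower bars of Cx3cl1, Ccr9, Cxcr5 and Ackr3 run past the left edge because the SD is close to or above the mean.

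The ligands of CCR2, the receptor that brings classical monocytes out of the marrow and into tissue, were all lower (3 of 3 tested). Ccl12, a monocyte chemoattractant found in the mouse, ranged in untreated HFD from 0.563 to 2.49 CPM with a median of 1.13. In UCMSC-Exos it ranged from 0 to 0.418 CPM with a median of 0.160. All 8 treated libraries lay below every untreated one, UCMSC-Exos 9 included (0.188 CPM). Ccl12 had a log2 fold change of -3.06 ± 0.46 (SE; edgeR adjusted p = 2.42e-04). Of all tested genes, 0.807% were lower in this way with no overlap. The values rest on 20 to 92 reads per untreated library and 0 to 13 reads per treated library.

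Ccl2, the main CCR2 ligand, ranged from 4.5 to 13.7 CPM (median 5.89) in untreated HFD and from 1.64 to 7.48 CPM (median 3.08) in UCMSC-Exos. The groups overlapped: 5 of 8 treated libraries lay below the lowest untreated one, and UCMSC-Exos 9 was the highest treated library. Ccl2 had a log2 fold change of -0.99 ± 0.31 (SE; edgeR adjusted p = 0.0327). Ccl7, a monocyte chemoattractant that also binds CCR1 and CCR3, ranged from 0.704 to 6.03 CPM (median 1.75) against 0.134 to 1.79 CPM (median 0.800). Its highest untreated value was that of untreated HFD 3, and its highest treated value that of UCMSC-Exos 9. Ccl7 had a log2 fold change of -1.47 ± 0.50 (SE; edgeR adjusted p = 0.0449). The call of Ccl2 was lost in 8 of 17 fits that left out 1 library (without untreated HFD 2, 4 or 5 or UCMSC-Exos 1, 2, 3, 5 or 8; highest edgeR adjusted p 0.0689). That of Ccl7 was lost in 12 (kept without untreated HFD 1, 7, 8 or 9 or UCMSC-Exos 9; highest 0.0857), and also without untreated HFD 3 and 9 together (-1.25, edgeR adjusted p = 0.0664).

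These 3 genes lie in 1 cluster on chromosome 11 (mm10, 82035571 to 82305690), in the order Ccl2, Ccl7, Ccl11, Ccl12, Ccl8, Ccl1. Ccl11, Ccl8 and Ccl1 had too few reads to be tested. Ccl11, the eosinophil chemokine eotaxin, was chosen here after its values were seen: it had 193 reads over the 9 untreated libraries and 18 over the 8 treated ones. Its highest value, 3.68 CPM, was in untreated HFD 9, the library with muscle transcripts; their part in it was not tested. In a fit with no filter on low counts, its log2 fold change was -3.03 ± 1.01 (SE; edgeR adjusted p = 0.0769).

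Of the CC ligands of the macrophage inflammatory protein (MIP) type, which attract monocytes, T cells and other leukocytes, 3 of 5 tested fell and the median log2 fold change was -0.49. Ccl3 and Ccl4, the macrophage inflammatory proteins 1-alpha and 1-beta, were lower by similar amounts. Ccl3 ranged from 1.51 to 4.13 CPM (median 2.61) in untreated HFD and from 0.435 to 2.75 CPM (median 1.14) in UCMSC-Exos, with a log2 fold change of -1.07 ± 0.29 (SE; edgeR adjusted p = 0.0156). Ccl4 ranged from 1.35 to 3.88 CPM (median 2.70) and from 0.501 to 2.44 CPM (median 0.984), with a log2 fold change of -1.15 ± 0.31 (SE; edgeR adjusted p = 0.0162). In both genes UCMSC-Exos 9 was the highest treated library, near the untreated median. The groups overlapped through it and a few other libraries.

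Ccl9 had the smallest fall of the 14 and also a narrow spread. It ranged from 48.3 to 71.1 CPM (median 61.7) in untreated HFD and from 35.6 to 60.1 CPM (median 41.0) in UCMSC-Exos. Here 7 of 8 treated libraries lay below every untreated one, UCMSC-Exos 9 among them (43.1 CPM), and the exception was UCMSC-Exos 6. Ccl9 had a log2 fold change of -0.49 ± 0.10 (SE; edgeR adjusted p = 0.00235).

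Its neighbour and close relative Ccl6 ranged from 22.8 to 80.3 CPM (median 46.0) and from 33.0 to 55.6 CPM (median 38.9), so every treated library fell inside the untreated range. Ccl6 had a log2 fold change of -0.21 ± 0.21 (SE; edgeR adjusted p = 0.493). Ccl5, known as RANTES and made mainly by T and NK cells, had a log2 fold change of 0.32 ± 0.25 (SE; edgeR adjusted p = 0.370), with 6.22 CPM as the untreated and 8.63 CPM as the treated median. The 5 genes form 1 cluster on chromosome 11 (mm10, 83525778 to 83664683), in the order Ccl5, Ccl9, Ccl6, Ccl3, Ccl4. The genes that fell and those that did not pass were thus interspersed along the cluster.

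Because Ccl9 and Ccl6 are neighbours with similar levels, their ratio within each library was compared as well; this and the ratios below were chosen after the values were seen and are given with no test. The log2 ratio of Ccl9 to Ccl6 was 0.47 ± 0.56 (SD, n = 9) in untreated HFD and 0.08 ± 0.19 (SD, n = 8) in UCMSC-Exos. The difference was -0.39, with 7 of 8 treated libraries below the untreated median and 0 below the untreated minimum.

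None of the 3 tested members of the other CC ligands passed. Ccl22, a ligand of CCR4 made by dendritic cells and macrophages, ranged from 0.783 to 2.76 CPM (median 1.58) in untreated HFD and from 0.334 to 2.99 CPM (median 0.699) in UCMSC-Exos. The highest value of both groups was that of UCMSC-Exos 9, and 6 of 8 treated libraries lay below every untreated one. The log2 fold change was -0.88 ± 0.40 (SE; edgeR adjusted p = 0.119) and, without UCMSC-Exos 9, -1.43 ± 0.32 (SE; edgeR adjusted p = 0.00199). Ccl25, the gut-homing ligand of CCR9, had 6.91 ± 0.903 CPM (SD, n = 9) and 7.03 ± 0.749 CPM (SD, n = 8). Ccl27a, a skin-homing ligand of CCR10, had 4.99 ± 0.458 and 5.60 ± 0.799 CPM. Ccl27a has near-identical copies, and its exons, like those of Ccl25, overlap a more abundant gene on the opposite strand (Il11ra1 and Elavl1). The counting used no strand, so these values are uncertain.

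The ligands of CXCR2, the receptor that brings neutrophils into tissue, did not move as a group: 1 of 3 tested members fell. Cxcl5, the epithelial member of this set, ranged from 0.530 to 1.59 CPM (median 1.13) in untreated HFD and from 0 to 0.705 CPM (median 0.414) in UCMSC-Exos. Most treated libraries (6 of 8) lay below every untreated one, and the highest treated value was again that of UCMSC-Exos 9. Cxcl5 had a log2 fold change of -1.66 ± 0.45 (SE; edgeR adjusted p = 0.0156), on 19 to 61 reads per untreated library and 0 to 30 per treated library.

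Cxcl1, an acute-phase neutrophil attractant, ranged from 6.45 to 24.5 CPM (median 11.9) and from 11.4 to 30.4 CPM (median 21). The treated median was the higher one, but 6 of 8 treated libraries lay inside the untreated range. Cxcl1 had a log2 fold change of 0.58 ± 0.25 (SE; edgeR adjusted p = 0.109), and it passed without untreated HFD 5 (edgeR adjusted p = 0.0351). Cxcl2, a macrophage-derived neutrophil attractant, had a log2 fold change of 0.73 ± 0.30 (SE; edgeR adjusted p = 0.0969). The log2 ratio of Cxcl5 to Cxcl1 was -3.46 ± 0.71 (SD, n = 9) in untreated HFD and -5.94 ± 1.24 (SD, n = 8) in UCMSC-Exos. The difference was -2.47, and 7 of 8 treated libraries lay below every untreated one. UCMSC-Exos 5 held 0 reads of Cxcl5, so its log2 ratio of -8.59 rests on the pseudocount of 0.05 CPM. Without that library the treated log2 ratio was -5.56 ± 0.665 (SD, n = 7) and the difference -2.09. The 3 genes lie within 1 cluster on chromosome 5 (mm10, 90759360 to 90905938).

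The ligands of CXCR3, the receptor of activated T and NK cells, are all known to be induced by interferon, and 1 of the 3 fell. Cxcl10 ranged from 15.3 to 34.9 CPM (median 20.5) in untreated HFD and from 6.72 to 24.1 CPM (median 13) in UCMSC-Exos. The lowest values, 6.72 to 7.62 CPM, were those of UCMSC-Exos 1, 2 and 3, and UCMSC-Exos 6, 7 and 9 lay inside the untreated range. Cxcl10 had a log2 fold change of -0.83 ± 0.25 (SE; edgeR adjusted p = 0.0265). The call was lost without untreated HFD 2 or UCMSC-Exos 1, 2 or 3 (highest edgeR adjusted p 0.0551). Exons of Cxcl10 overlap Art3 on the opposite strand, which went from 7 to 2.80 CPM.

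Cxcl9, which is induced mainly by interferon-gamma, ranged from 11.8 to 54.7 CPM (median 43.8) in untreated HFD and from 17.1 to 109 CPM (median 49.6) in UCMSC-Exos. The treated libraries spread widely: UCMSC-Exos 1, 2 and 3 had 17.1 to 23.6 CPM, and UCMSC-Exos 6, 7 and 8 had 75.4 to 109 CPM. Cxcl9 had a log2 fold change of 0.38 ± 0.36 (SE; edgeR adjusted p = 0.476). Cxcl11, the third ligand, had 2.49 ± 0.622 CPM (SD, n = 9) and 2.59 ± 1.05 CPM (SD, n = 8).

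Cxcl10 and Cxcl9 are neighbours on chromosome 5 (cluster from 92321347 to 92365485, mm10), and their ratio is given as a description too. The log2 ratio of Cxcl10 to Cxcl9 was -0.76 ± 0.74 (SD, n = 9) in untreated HFD and -1.86 ± 0.58 (SD, n = 8) in UCMSC-Exos. The difference was -1.11; all 8 treated libraries lay below the untreated median and 3 below the untreated minimum.

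The bases before the start of these 2 genes and of Ccl12 are shown because Cxcl10 and Cxcl9 share inducers and position but only Cxcl10 passed here, and Ccl12 had the largest fall. Each run is the 250 bases before the gene's start, 5′ to 3′ on the gene's strand, from RefSeq on GRCm38.p6. Capitals mark letters that match the interferon-stimulated response element, searched as GAAA, any 2 bases and GAAA, or the kappa-B element, searched as GGGA, any 4 bases and CC, on either strand; the motifs do not overlap each other in these runs.
Cxcl10 (chr5:92348890-92349139, minus strand): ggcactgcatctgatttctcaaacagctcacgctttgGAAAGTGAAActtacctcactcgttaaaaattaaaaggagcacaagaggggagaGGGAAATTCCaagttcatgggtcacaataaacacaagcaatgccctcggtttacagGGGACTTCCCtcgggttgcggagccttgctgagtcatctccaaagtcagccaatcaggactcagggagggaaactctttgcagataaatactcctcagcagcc
Cxcl9 (chr5:92328080-92328329, minus strand): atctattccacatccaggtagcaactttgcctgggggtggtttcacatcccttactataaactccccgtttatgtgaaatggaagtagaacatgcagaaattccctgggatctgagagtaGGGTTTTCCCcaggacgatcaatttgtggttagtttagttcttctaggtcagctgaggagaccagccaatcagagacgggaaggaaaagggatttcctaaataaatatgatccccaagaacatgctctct
Ccl12 (chr11:82101595-82101844, plus strand): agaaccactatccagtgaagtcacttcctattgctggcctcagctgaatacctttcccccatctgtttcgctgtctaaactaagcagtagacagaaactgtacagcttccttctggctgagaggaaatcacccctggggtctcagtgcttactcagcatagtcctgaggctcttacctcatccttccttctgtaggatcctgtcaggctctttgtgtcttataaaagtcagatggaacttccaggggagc
Cxcl10 held 1 match to the first motif, with its first base at -213 from the start, and matches to the second with first bases at -159 and -103. Cxcl9 held 1 kappa-B match at -130 and no match to the first motif, and Ccl12 held neither. Of 32851 such windows over all genes, 2.98% held the first motif and 17.6% the second. A promoter window was found for 42 members, 26 of them tested. Of the 8 genes that fell and had a window, 1 held the first motif (Cxcl10) and 2 the second (Cxcl10 and Ccr1). Of the 16 that did not pass, 1 held the first and 6 the second, and of the 2 that rose, 0 held the first and 2 the second. These matches are letters only and say nothing of binding.

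Of the other CXC, CX3C and XC ligands, 2 of 6 tested fell and 1 rose. Cxcl16, a membrane-bound ligand of CXCR6 that also takes up oxidized lipoprotein, ranged from 26.0 to 43.0 CPM (median 37.3) in untreated HFD and from 13.3 to 34.3 CPM (median 17.1) in UCMSC-Exos. Only UCMSC-Exos 9 (34.3 CPM) reached the untreated range; the other 7 treated libraries ended at 17.8 CPM. Cxcl16 had a log2 fold change of -0.88 ± 0.17 (SE; edgeR adjusted p = 0.00228) and, without UCMSC-Exos 9, -1.08 ± 0.12 (SE; edgeR adjusted p = 6.13e-06). Exons of Cxcl16 overlap Zmynd15 on the opposite strand, which went from 16.9 to 10.6 CPM.

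Xcl1, lymphotactin, is made by T and NK cells and attracts cross-presenting dendritic cells. It ranged from 0.232 to 1.08 CPM (median 0.641) in untreated HFD and from 0.0656 to 0.658 CPM (median 0.179) in UCMSC-Exos, on 8 to 40 and 2 to 28 reads per library. The highest treated value was that of UCMSC-Exos 9. Xcl1 had a log2 fold change of -1.44 ± 0.43 (SE; edgeR adjusted p = 0.0247), and the call was lost without UCMSC-Exos 2, 3 or 5 (highest 0.0523).

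Cxcl13, the ligand that gathers B cells through CXCR5, was the only one of the 23 tested ligands of the rule that rose; Ccl24, outside the rule, rose too. It ranged from 0.307 to 0.920 CPM (median 0.465) in untreated HFD and from 0.0941 to 3.82 CPM (median 2.18) in UCMSC-Exos. UCMSC-Exos 9 was the lowest library of both groups, with 4 reads, and the other 7 treated libraries began at 1.61 CPM, above every untreated one. The log2 fold change was 2.04 ± 0.42 (SE; edgeR adjusted p = 0.00297) and, without UCMSC-Exos 9, 2.22 ± 0.25 (SE; edgeR adjusted p = 5.03e-06). With surrogate variables it was 0.27 ± 0.30 (SE; edgeR adjusted p = 0.689), and the call was lost. Summed markers of B and plasma cells ranged from 14.8 to 28.2 CPM in untreated HFD and from 57.9 to 101 CPM in UCMSC-Exos, with 2 of 7 tested markers higher (Jchain and Igha; also 2 without UCMSC-Exos 9) and none at 0. Their part in the Cxcl13 result was not tested; in UCMSC-Exos 9 the sum was 73.5 CPM while Cxcl13 was low.

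Cx3cl1, fractalkine, a membrane-bound ligand of epithelium and endothelium, passed or did not pass depending on UCMSC-Exos 9. It ranged from 5.01 to 27.1 CPM (median 11.5) in untreated HFD. In UCMSC-Exos it ranged from 1.48 to 22.2 CPM (median 2.53), where 22.2 CPM was UCMSC-Exos 9 and the next library had 5.46 CPM. Cx3cl1 had a log2 fold change of -1.45 ± 0.54 (SE; edgeR adjusted p = 0.0684) and, without that library, -2.40 ± 0.37 (SE; edgeR adjusted p = 1.2e-04). Summed bile duct markers ranged from 120 to 528 CPM in untreated HFD and from 48.9 to 129 CPM in 7 treated libraries, with 598 CPM in UCMSC-Exos 9. Most of this sum was Spp1, which is also in the list of monocytes and lipid-associated macrophages, so it does not measure bile duct cells alone. Spp1 had a mean of 236 CPM in untreated HFD and stood at 500 CPM in UCMSC-Exos 9. Of the 6 markers 0 passed with that library and 5 fell without it (Krt7, Krt19, Epcam, Spp1 and Tspan8), where the keratin gene Krt19 had a log2 fold change of -1.74 (edgeR adjusted p = 0.00405). None was at 0, and their part in Cx3cl1 was not tested.

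Cxcl14, an epithelial chemokine, showed the same pattern, with 7.43 to 15.9 CPM (median 12.7) in untreated HFD and 3.57 to 18.7 CPM (median 5.69) in UCMSC-Exos. UCMSC-Exos 9 had the 18.7 CPM and the other 7 ended at 8.64 CPM. Cxcl14 had a log2 fold change of -0.74 ± 0.29 (SE; edgeR adjusted p = 0.0804), and -1.12 ± 0.21 without UCMSC-Exos 9 (SE; edgeR adjusted p = 6.22e-04). Cxcl12 ranged from 189 to 450 CPM (median 336) and from 233 to 408 CPM (median 329), with every treated library inside the untreated range and a log2 fold change of 0.00 ± 0.15 (SE; edgeR adjusted p = 0.988).

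**Figure D3:**
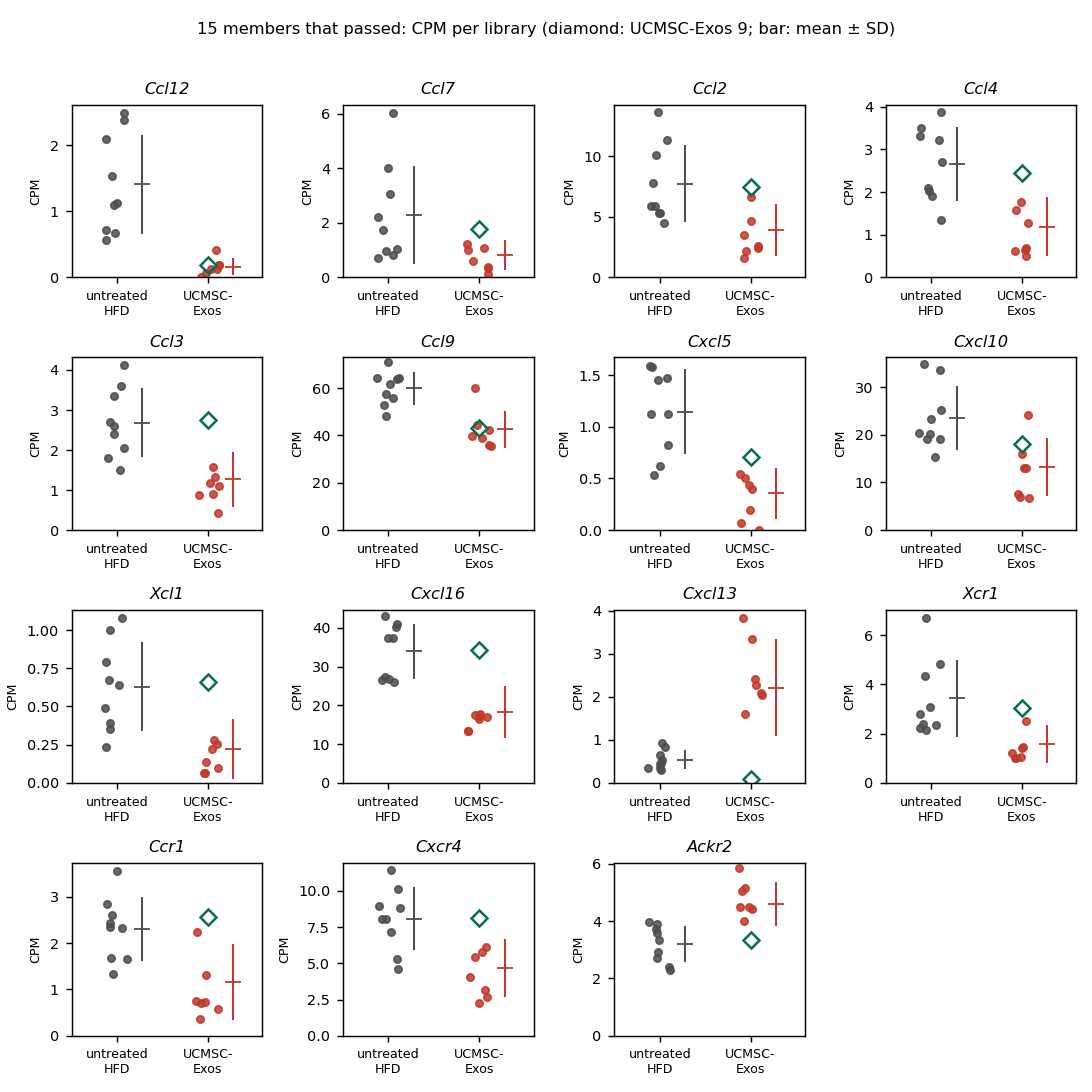
CPM in each library for 15 members that passed, with untreated HFD and UCMSC-Exos side by side, mean ± SD beside the points and UCMSC-Exos 9 as an open diamond. Only the Ccl12 panel shows no overlap; in the panel of Cxcl16 the diamond alone lies among the untreated values, and in that of Cxcl13 it lies below them.

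Among the signalling receptors 4 of 10 tested fell and none rose. Ccr1, a receptor of Ccl3, Ccl7 and Ccl9 on monocytes and neutrophils, ranged from 1.32 to 3.57 CPM (median 2.35) and from 0.368 to 2.56 CPM (median 0.740). Most treated libraries (6 of 8) lay below every untreated one. Ccr1 had a log2 fold change of -0.98 ± 0.34 (SE; edgeR adjusted p = 0.0461). This call was the least stable of the 14 in fits that left out 1 library: it was kept without untreated HFD 3 or 8 or UCMSC-Exos 6 or 9 and lost in the other 13 (highest edgeR adjusted p 0.0913), and lost without untreated HFD 3 and 9 together (-0.99, edgeR adjusted p = 0.0612).

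Xcr1, the receptor of Xcl1 and a marker of cross-presenting dendritic cells, ranged from 2.15 to 6.71 CPM (median 2.78) and from 0.996 to 3.03 CPM (median 1.32), with UCMSC-Exos 9 highest among the treated. The log2 fold change was -1.11 ± 0.29 (SE; edgeR adjusted p = 0.0136). Summed dendritic cell markers, a list that holds Xcr1 itself, ranged from 24 to 34.8 CPM in untreated HFD, from 20.8 to 23.4 CPM in 7 treated libraries, and stood at 30.0 CPM in UCMSC-Exos 9. Of 5 tested, Xcr1 and Flt3 fell, with and without UCMSC-Exos 9, while Clec9a, another marker of the cross-presenting type, had 9.92 ± 1.18 CPM in untreated HFD (SD, n = 9) and 8.70 ± 1.29 CPM in UCMSC-Exos (SD, n = 8) and did not pass (edgeR adjusted p = 0.178).

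Cxcr4, the receptor of Cxcl12 that holds leukocytes in tissue, ranged from 4.58 to 11.5 CPM (median 8.09) and from 2.24 to 8.13 CPM (median 4.74). The groups overlapped, and 4 of 8 treated libraries lay below every untreated one. Cxcr4 had a log2 fold change of -0.78 ± 0.24 (SE; edgeR adjusted p = 0.0295). The call was lost without untreated HFD 1 or 6 or UCMSC-Exos 5, 7 or 8 (highest edgeR adjusted p 0.0590). Ccr7, which guides dendritic and naive T cells to lymph nodes, had a log2 fold change of -0.70 ± 0.27 (SE; edgeR adjusted p = 0.0736), and -0.93 ± 0.24 without UCMSC-Exos 9 (SE; edgeR adjusted p = 0.00642). It also passed without untreated HFD 3 and 9 together (-0.80, edgeR adjusted p = 0.0323).

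Cxcr3, Cxcr6 and Cxcr5, all receptors of lymphocytes, did not pass. Cxcr3, the T and NK cell receptor of Cxcl9, Cxcl10 and Cxcl11, had 2.75 ± 0.591 CPM (SD, n = 9) and 3.39 ± 1.54 CPM (SD, n = 8). Cxcr6, the receptor of Cxcl16 on liver-resident T and NKT cells, had 2.83 ± 0.915 and 3.54 ± 1.08 CPM. Cxcr5, the receptor of Cxcl13 on B cells, had 0.364 ± 0.285 and 0.573 ± 0.250 CPM; its exons overlap the more abundant Bcl9l on the opposite strand. None of these passed, with edgeR adjusted p of 0.387 for Cxcr3, 0.301 for Cxcr6 and 0.257 for Cxcr5. Summed T and NK cell markers ranged from 19.6 to 32.4 CPM in untreated HFD and from 20.5 to 53.7 CPM in UCMSC-Exos, with 2 of 11 higher (Cd4 and Cd8b1) and none at 0. Without UCMSC-Exos 9, 1 was higher (Cd4) and 1 lower (Ncr1).

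Ligand and receptor therefore moved together in some pairs and not in others. Xcl1 and Xcr1 both fell, as did Ccl3, Ccl7 and Ccl9 with Ccr1. Cxcl16 fell while Cxcr6 did not pass, Cxcl13 rose while Cxcr5 did not pass, and Cxcr4 fell while Cxcl12 did not pass.

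Among the 4 atypical receptors 1 rose. Ackr2, which scavenges inflammatory CC chemokines such as Ccl2, Ccl3 and Ccl4, ranged from 2.29 to 3.96 CPM (median 3.34) in untreated HFD and from 3.34 to 5.85 CPM (median 4.5) in UCMSC-Exos. The lowest treated value was that of UCMSC-Exos 9; the other 7 began at 4.00 CPM, above every untreated library. Ackr2 had a log2 fold change of 0.52 ± 0.14 (SE; edgeR adjusted p = 0.0173).

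Ackr1, the Duffy receptor that carries chemokines across endothelium, had a log2 fold change of -0.53 ± 0.21 (SE; edgeR adjusted p = 0.0827); its exons overlap those of Cadm3 on the same strand. Ackr3, the scavenger of Cxcl12, and Ackr4, the scavenger of Ccl19, Ccl21 and Ccl25, each had their highest value in untreated HFD 9, the library with muscle transcripts (19 and 6.05 CPM). Their other untreated libraries ended at 3.23 and 1.94 CPM. The log2 fold change of Ackr3 went from -1.07 ± 0.59 to -0.30 ± 0.35 when untreated HFD 3 and 9 were left out (SE; edgeR adjusted p = 0.199 and 0.566). That of Ackr4 went from 0.47 ± 0.34 to 0.92 ± 0.21 and passed (SE; edgeR adjusted p = 0.330 and 0.0073). Ackr4 exons overlap Acad11 on the opposite strand, at 256 CPM in untreated HFD and 308 CPM in UCMSC-Exos, so its reads may be mixed.

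UCMSC-Exos 9 often lay on the untreated side among the members, as it did on the first principal component of all tested genes. The matching shares of all tested genes were not counted, so these counts are not shown to be particular to the members. Among the 14 genes that fell, UCMSC-Exos 9 was the highest treated library in 11, lay at or above the untreated median in 8, and lay inside the untreated range in 12. It was on the side of its own group for Ccl12 and Ccl9. The median deviation of the 37 tested members from the untreated mean was 0.09 (log2 CPM) in UCMSC-Exos 9 and 0.01 in UCMSC-Exos 6. In the other 6 treated libraries it was between -0.95 and -0.50, and in the untreated libraries between -0.34 and 0.24. UCMSC-Exos 6 therefore also had no lower median, although it was not apart from its group on the first principal component (46.1).

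With UCMSC-Exos 9 left out, Cxcl16 joined Ccl12 among the members that were lower with no overlap, as were 4.38% of all tested genes. The 2 that were higher with no overlap were Cxcl13 and Ackr2, beside 3.88%. The 4 genes that fell in addition were Cx3cl1, Ccr7, Cxcl14 and Ccl22, all described above.

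**Figure D4:**
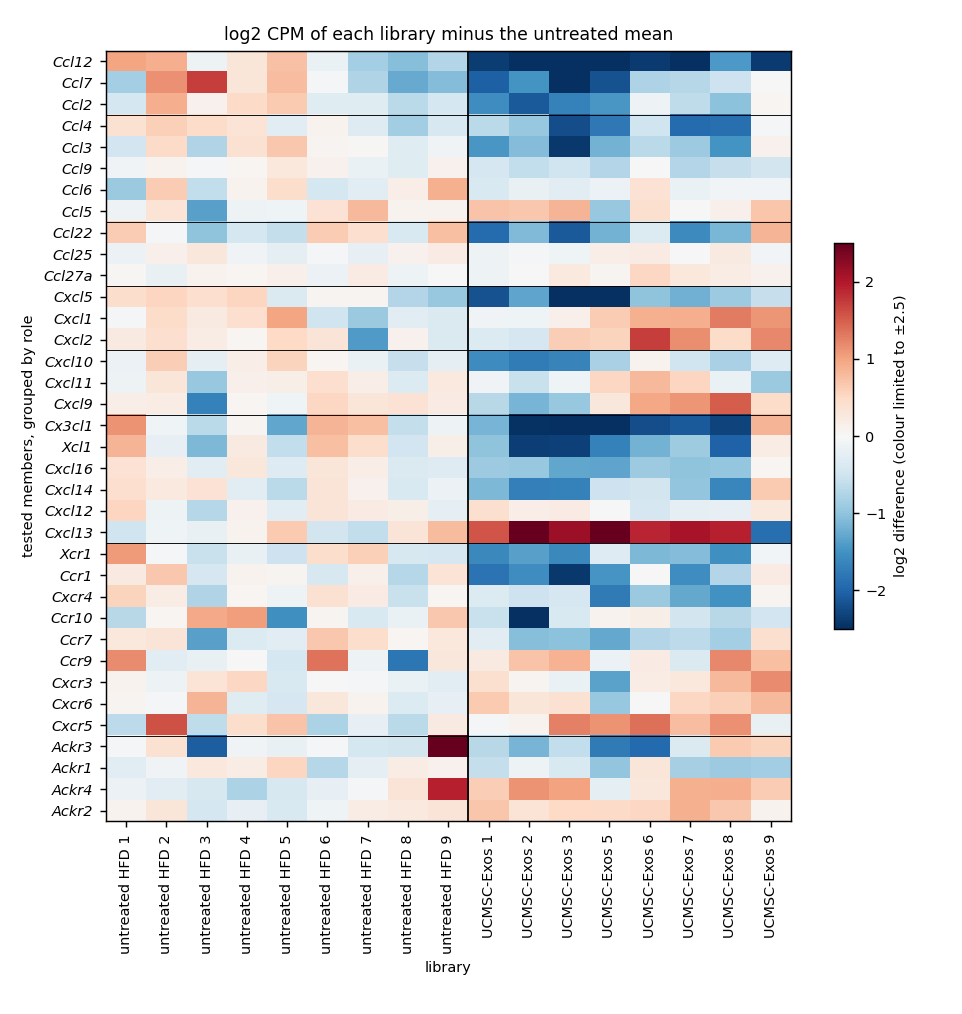
Log2 CPM of each library minus the untreated mean for 36 tested members (rows, grouped by role) in all 17 libraries (columns), red above and blue below, with colours limited to 2.5 in either direction. Blue fills most of the CCR2 ligand rows in the treated libraries, while the last column, UCMSC-Exos 9, has a median of 0.09 over all 37 tested members. That column is bluest for Ccl12 (-2.40) and Cxcl13 (-1.89) and paler blue for others, such as Cxcl11 (-0.92) and Ackr1 (-0.86).

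Genes that make, sense or carry on chemokine signals were counted from 4 lists. Beside these counts and those of the marker lists, 10.4% of all tested genes fell and 9.73% rose. The shares were 20.6% and 15% without UCMSC-Exos 9, and 9.74% and 10.9% without untreated HFD 3 and 9 together. Of 13 tested chemokine genes outside the rule, 3 fell and 1 rose, and 6 fell and 1 rose without UCMSC-Exos 9 (5 and 1 without untreated HFD 3 and 9 together). Ccr2 had 25.9 ± 6.59 CPM in untreated HFD (SD, n = 9) and 11.9 ± 4.77 CPM in UCMSC-Exos (SD, n = 8), with a log2 fold change of -1.12 ± 0.21 (SE; edgeR adjusted p = 0.00138), so the receptor of Ccl2, Ccl7 and Ccl12 fell together with its ligands. Ccl24, an eosinophil chemokine of macrophages that binds CCR3, rose by 1.88 ± 0.36 (SE, log2; edgeR adjusted p = 0.00196). Cd74, the invariant chain and a receptor of macrophage migration inhibitory factor, had a log2 fold change of -0.88 ± 0.22 (SE; edgeR adjusted p = 0.0100). Cx3cr1, the receptor of Cx3cl1 on monocytes and macrophages, stood at 46.5 CPM in UCMSC-Exos 9 and had means of 27.6 ± 11.7 CPM in untreated HFD (SD, n = 9) and 12.9 ± 14 CPM in UCMSC-Exos (SD, n = 8). Like its ligand, it did not pass with that library (log2 fold change -1.08 ± 0.44, SE; edgeR adjusted p = 0.0910) and passed without it (-1.76 ± 0.30, SE; edgeR adjusted p = 3.47e-04). Cxcr2, the neutrophil receptor, had 1.13 ± 0.504 and 0.866 ± 0.402 CPM and did not pass (edgeR adjusted p = 0.393, and 0.423 without UCMSC-Exos 9).

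Of 35 genes of receptor signalling, 12 fell and 1 rose, with a median log2 fold change of -0.21, and 22 fell and 1 rose without UCMSC-Exos 9. Fgr, a Src-family kinase of myeloid cells, had a log2 fold change of -0.57 ± 0.14 (SE; edgeR adjusted p = 0.00885). Rgs2, which turns off G protein signals, had -1.02 ± 0.19 (SE; edgeR adjusted p = 0.00163). Of 10 proteases that shed or cleave chemokines, 1 fell (Mmp14, -0.64, edgeR adjusted p = 0.0223) and 1 rose (the neutrophil collagenase Mmp8, 1.06, edgeR adjusted p = 0.0489). Both counts were near the shares of all tested genes. Without UCMSC-Exos 9, 3 fell and 3 rose, and without untreated HFD 3 and 9 together 2 fell and 0 rose. The Mmp8 call was lost in 13 of 17 fits that left out 1 library (kept without untreated HFD 8 or UCMSC-Exos 7, 8 or 9; highest edgeR adjusted p 0.137).

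Of 17 tested genes that induce chemokines through NF-kB or interferon-gamma, 6 fell and 1 rose, and 9 fell and 1 rose without UCMSC-Exos 9. The median log2 fold change of the list was -0.263 with that library and -0.305 without it. The 1 that rose was Il1r1, the interleukin-1 receptor, from 64.7 ± 6.74 to 110 ± 10.6 CPM (SD, n = 9 and 8; log2 fold change 0.76 ± 0.07, SE; edgeR adjusted p = 3.91e-06). Tnf and Il1b, inducers of Ccl2 and Cxcl1, had log2 fold changes of -0.28 and -0.47 and did not pass; without UCMSC-Exos 9, Il1b passed (-0.60, edgeR adjusted p = 0.0398) and Tnf did not (-0.48, 0.368). In UCMSC-Exos 9, Il1r1 stood at 110 CPM, on the side of the treated group, whereas Ccr2 stood at 22 CPM and Cd74 at 885 CPM, near the untreated means.

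Cell type markers also moved. All 6 hepatocyte markers rose, with and without UCMSC-Exos 9, their sum ranging from 31600 to 50100 CPM in untreated HFD and from 39000 (UCMSC-Exos 9) to 71400 CPM in UCMSC-Exos. Of 9 markers of monocytes and lipid-associated macrophages, 3 fell, among them the monocyte gene Ly6c2 with a log2 fold change of -1.07 (edgeR adjusted p = 7.25e-04), which stood at 8.96 CPM in UCMSC-Exos 9 against a treated mean of 7.44 CPM. Trem2 and Gpnmb did not pass; in UCMSC-Exos 9 they stood at 64.1 and 221 CPM, above the untreated means of 33.4 and 93.1 CPM. Without UCMSC-Exos 9, 7 of the 9 fell and 1 rose (Fn1), Trem2 (-1.23, edgeR adjusted p = 7.52e-04) and Gpnmb (-1.01, 0.00989) among those that fell. Of 7 stellate cell markers 3 fell (Des, Dcn and Colec11; median log2 fold change -0.60), and 5 without UCMSC-Exos 9. Their sum ranged from 430 to 1390 CPM in untreated HFD (median 649 CPM), and the highest was untreated HFD 9, the library with muscle transcripts. In 7 treated libraries the sum ranged from 326 to 460 CPM, and it stood at 852 CPM in UCMSC-Exos 9. Des, which muscle also expresses, had a log2 fold change of -3.46 and, without untreated HFD 3 and 9, -0.43 (edgeR adjusted p = 0.0392 and 0.198). Of 7 Kupffer cell markers 2 rose, and of 5 tested neutrophil markers 0 passed; without UCMSC-Exos 9, 3 of 7 and 2 of 6 rose. No marker of these lists was at 0 throughout either group. Their part in the chemokine results was not tested.

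The 19 members with too few reads were Ccl1, Ccl8, Ccl11, Ccl17, Ccl19, Ccl20, Ccl21a, Ccl21b, Ccl26, Ccl27b, Ccl28, Cxcl3, Cxcl15, Cxcl17, Ccr3, Ccr4, Ccr6, Ccr8 and Cxcr1. Ccl21a and Ccl26 had no read in any of the 17 libraries, and the highest group mean of the rest was 0.595 CPM (Ccl11). Ccl21a, Ccl21b and Ccl27b belong to near-identical copies that lose shared reads in this counting. The lymphoid chemokine Ccl19 had 125 reads in untreated HFD and 28 in UCMSC-Exos, and Ccr3, the eosinophil receptor, had 108 and 36. Neither passed in the fit with no filter (edgeR adjusted p = 0.3 and 0.238), and no difference could be shown at this depth.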

How the data were processed

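The liver libraries were deposited as whole-number counts, 1 table for all. The submitters' processing notes name mm10, HISAT2 2.2.1, fastp 1.3.3, Subread 2.0.2 and featureCounts. GENCODE vM25 exons were counted with featureCounts 2.1.1, per the file headers (the sources differ in version), without strand, so antisense partners cannot be told apart, and with both mates of a pair counted. A symbol was found for 55141 of the 55401 gene IDs. Of the per-sample columns, 1 fitted no library name in the labels and was left out. The labels give mice per group but no cage, litter or batch.

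Counts were fitted over all genes in R 4.3.3 with edgeR 4.0.16: filterByExpr with a minimum count of 10, TMM scaling and a robust quasi-likelihood F test, two-sided, with Benjamini-Hochberg adjustment over 16238 genes and a threshold of 0.05. The SE of a log2 fold change is its size divided by the square root of F. CPM use effective library sizes, log2 CPM a prior count of 2, and CPM per kb the exon length in the table. The biological coefficient of variation was 0.29. No pair of libraries agreed within sampling noise (closest pair UCMSC-Exos 2 and 3, median chi-square 3.95 times that of independent reads). The steps were tested on simulated counts with 200 changed genes.

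Named members are all that passed, the 10 tested members of highest CPM per kb, and in each role without a call the member of smallest p; in each related list, up to 3 passing genes of smallest p. Other members are given as values. Counts cover all members and lists, and some genes in them are not reported here. The members, lists and rules were chosen with earlier results of these data known. Ratios of 2 members used a pseudocount of 0.05 CPM and no test. The alternatives tried were upper quartile and RLE scaling, a filter of 1 CPM in 8 libraries, no filter, replicate number as block, DESeq2 1.42.0, limma 3.58.1 voom with quality weights, 3 surrogate variables (sva 3.50.0), each library left out, and untreated HFD 3 and 9 left out together.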

Additional observations from a re-analysis of the deposited data

Results flagged for a closer look

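Within groups, 44 sets of log2 CPM values (22 named members in 2 groups) were searched for a library apart from the others. It was flagged where its gap to the nearest other exceeded Dixon's critical share of the group's log2 CPM range. That share is 0.493 for 9 libraries and 0.526 for 8. Chance gives about 1 in 20, and 7 were found. The shares below are on the log2 scale, with plain CPM beside them, and the libraries flagged could differ on plain CPM. UCMSC-Exos 9 was apart in Cxcl16 and Cxcl13. It was highest for Cxcl16 (34.3 CPM against 17.8 for the next library, a share of 0.694) and lowest for Cxcl13 (0.0941 against 1.61 CPM, 0.739). UCMSC-Exos 6 was highest for the neighbours Ccl6 (55.6 against 41.1 CPM, 0.581) and Ccl9 (60.1 against 44.6 CPM, 0.572). Untreated HFD 3, the library with pancreas transcripts, was lowest for Cxcl9 (11.8 against 35.5 CPM, 0.717) and Ccl5 (2.26 against 5.38 CPM, 0.566). UCMSC-Exos 5 was lowest for Ccl5 (3.03 against 5.91 CPM, 0.533).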

How the results depend on the processing

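None of the 16 members that passed changed sign under an alternative. The 14 members that fell became 4 with surrogate variables, where 1007 genes passed in all, and 7732 genes passed with limma voom and quality weights, beside 3274. The 2 that rose became 1 with at least 1 CPM in 8 libraries, where Cxcl13 was not tested. They also became 1 with the replicate block, where Ackr2 was tested and did not pass (edgeR adjusted p = 0.0517). The filter of 1 CPM left Ccl12, Cxcl5 and Xcl1 untested too, and 11 members fell with it. The median log2 fold change of -0.70 became -0.33 with no filter, -0.17 with DESeq2 and -0.32 with surrogate variables; the first and second of these fits hold more members of few reads. Over the fits that left out 1 library, 9 (without UCMSC-Exos 2, 3 or 5) to 18 (without UCMSC-Exos 9) members fell and 2 to 3 rose, the median ran from -0.75 to -0.53, and 2005 (without UCMSC-Exos 3; 2086 without UCMSC-Exos 2) to 5823 (without UCMSC-Exos 9) genes passed. The causes were not tested. Of the 16 called members, 10 kept their call in all 17 such fits. No filter lost Ccl2, Ccl7, Ccr1 and Cxcl10.

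Replicate numbers do not pair the libraries: deviations of same-numbered libraries correlated between -0.17 and 0.24 over 8 shared numbers, and 1 of 8 correlated best with its own number. With the replicate block 15 members fell and 3027 genes passed; Ccl2, Ccl7 and Ackr2 were not called, and Ccl22 (-1.16, edgeR adjusted p = 0.0253), Cx3cl1 (-1.99, 0.011) and Ccr7 (-0.76, 0.0482) were called lower.

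Low read numbers limit Ccl12, Cxcl5, Xcl1 and Cxcl13 and left 19 members untested. The labels give no batch, so a batch shared by a group cannot be told apart from treatment.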
